A study of Mus musculus with 3 samples.

Results

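The genes described here are the transcriptional coactivators Yap1 (YAP) and Wwtr1 (TAZ), the TEAD transcription factors Tead1, Tead2, Tead3 and Tead4, the angiomotin-like genes Amotl1 and Amotl2, and the targets Ccn1 and Ccn2, which older annotations call Cyr61 and Ctgf. They were chosen by name as parts of a single pathway and not by their values. They make up 10 of the 19938 genes that had a probeset of their own on the array, and each was taken at its probeset with the highest mean. All 10 were measured, and no filter on low values was applied. Of the 10, Tead1 was the member with a further probeset of its own.

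Expression was measured on Affymetrix Mouse Gene 1.0 ST arrays in 3 samples of GFP-positive cells from the adult renal cortex, called replicates 1, 2 and 3, which form 1 group. Every sample came from 1 kidney of an adult mouse that carried the Tie2-GFP transgene on a mixed, primarily CD-1 background, and the sex was given as unknown. The Tie2 promoter drives GFP in endothelial cells, so the sort takes all cortical endothelium together and would also take any other cell that carries GFP. The medulla had been removed and glomeruli had been held back on a 40 µm mesh, and RNA was amplified in 1 round. All samples were digested with 1% collagenase for 5 min and with trypsin for 5 min, and meshes of 100 and 70 µm were also used. The deposited values are log2 signals per probeset, and the values of single samples and their means are given on that log2 scale, except where a value is called a signal, which is its antilog. There was no other group to compare with, so each mean was tested against a signal of 100, where the study's filter for low expression was set. The test used limma with Benjamini-Hochberg adjustment over 35557 probesets. The study applied its filter to raw expression levels in its own processing, so a deposited signal of 100 need not be the same level. A gene is called above or below 100 at an adjusted p under 0.05, and the spread behind the test is the spread between 3 samples. Probesets differ in how strongly they bind their transcript, so the level of a gene was set against this limit and against its own other samples, and no gene was ranked against another by its level.

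YAP and TAZ carry no DNA-binding domain and act on genes through the TEAD factors. In the Hippo pathway, the kinases MST1 and MST2 activate LATS1 and LATS2, which phosphorylate YAP and TAZ and so keep them out of the nucleus. Angiomotin proteins bind YAP and TAZ at cell junctions and in the cytoplasm. In endothelium the pathway is known for its response to blood flow, cell shape and matrix stiffness, and for its part in the sprouting of vessels in mice. Much of this control acts on the proteins, which an RNA array does not measure.

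Of the 10 genes, 6 were above a signal of 100, namely both coactivators, Tead1, Tead4, Amotl1 and Ccn2, 2 were below it (Tead2 and Tead3) and 2 were neither (Amotl2 and Ccn1). Over all genes, 22.9% were called above and 65.0% below. The same 6 members reached 100 in every sample, against 28.0% of all genes. A signal under 100 in each sample was found for Tead2, Tead3 and Amotl2, against 66.8% of all genes. The number that reached 100 was 7 in replicates 1 and 3 and 6 in replicate 2, and Ccn1 was the gene that differed.

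A property of the deposited values limits these calls. Of the 10 members, 5 (Yap1, Tead1, Tead2, Tead3 and Amotl1) held the same value in all 3 samples to all 5 decimals, as did 51.2% of all genes and 27.5% of the genes whose mean signal was at least 100. Such a probeset has a spread of 0 and hence a very small p, whatever its distance from the limit. The fit was therefore repeated with each of these probesets given the median variance of probesets of a similar mean whose values differed. Tead4, Amotl2 and Ccn2, each with an exactly equal pair of values, were left as they were and got no assigned spread. Probesets with such a pair also stayed among those whose values differed. The assigned spread, and the p values that use it, may therefore be too small. In that fit 4 members were above 100 (Wwtr1, Tead1, Tead4 and Ccn2) and the same 2 below, against 20.7% and 62.3% of all genes, and its adjusted p is given beside each of the 5 members as the p with an assigned spread.

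**Figure D1:**
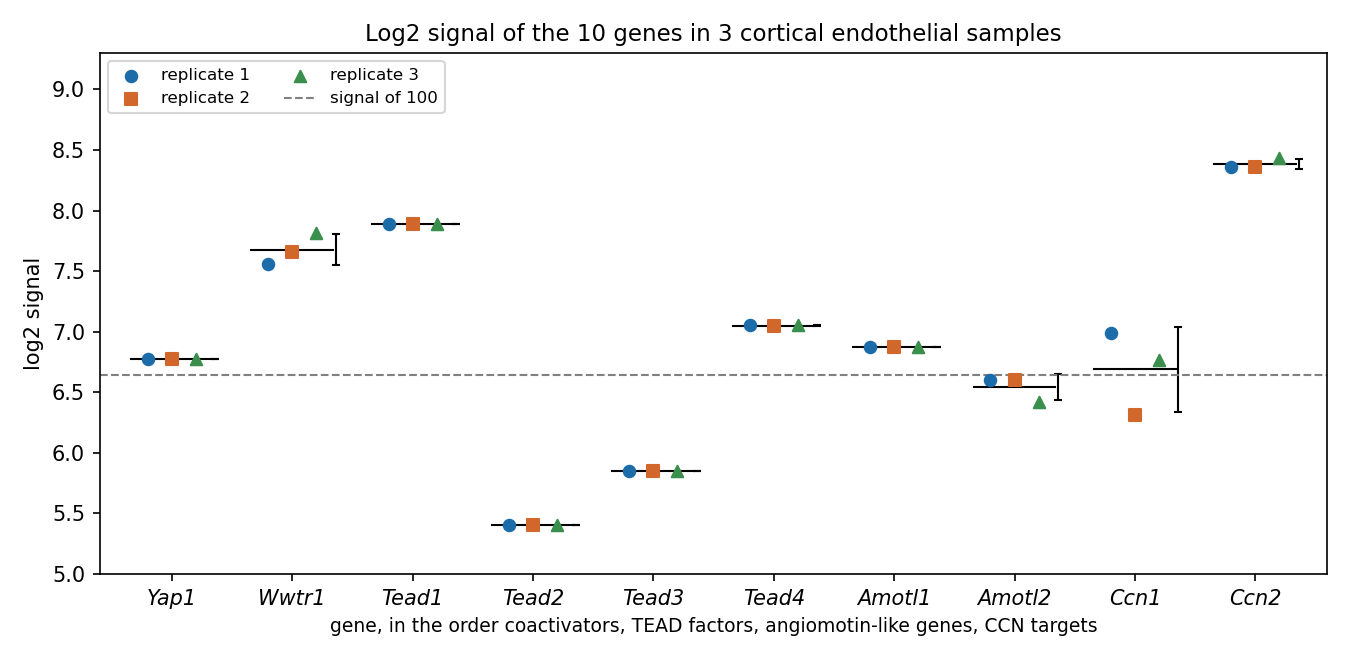
Log2 signal (y axis) of each of the 10 genes (x axis) in the 3 samples. Coloured points are the replicates, horizontal bars the means and error bars the SD (n = 3), and the dashed line is a signal of 100. Ccn1 is the gene whose samples lie on both sides of the line, and Yap1, Tead1, Tead2, Tead3 and Amotl1 show no spread.

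Of the coactivators, Wwtr1 was the better separated from the limit. Wwtr1 read 7.56, 7.66 and 7.81 (log2) in replicates 1, 2 and 3, or 7.68 ± 0.13 (SD, n = 3) and a mean signal of 204. All 3 samples were above 100, with the lowest in replicate 1 and the highest in replicate 3, and the adjusted p was 0.0081. The call needed all 3 samples, since leaving out replicate 1, 2 or 3 gave adjusted p values of 0.0658, 0.113 and 0.0855 with limma, while the mean stayed 0.96 to 1.09 log2 units above the limit. Yap1 read 6.77 in each sample, a signal of 109. It was called above 100 at an adjusted p of 1.4e-05, but the adjusted p with an assigned spread was 0.661, and the 95% interval of its mean then ran from 6.42 to 7.12 on the log2 scale, on both sides of the limit at 6.64. The level of Yap1 could thus not be told from 100 once its spread was not taken as 0.

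Promoter sequence was available from RefSeq (GRCm38.p6) for 7 of the 10 members. The 250 bases before each start site were searched on both strands for the core that TEAD factors bind, GGAATG, read as CATTCC on the opposite strand. At least 1 match was found for 5 of the 7 members (Yap1, Wwtr1, Tead3, Amotl2 and Ccn1) and no match for Tead2 and Amotl1. For comparison, 12.6% of 32851 promoter windows held the core, and 14.4% of 27025 genes had it in any of their windows. The windows of both coactivators are printed because they hold the core upstream of the genes whose proteins act through TEAD, 141 bases before the start of Yap1 (chr9:8004597-8004846, minus strand) and 136 bases before the most upstream start of Wwtr1 (chr3:57575911-57576160, minus strand). They are given 5′ to 3′ on the strand of the gene, with the core in capitals.
Yap1: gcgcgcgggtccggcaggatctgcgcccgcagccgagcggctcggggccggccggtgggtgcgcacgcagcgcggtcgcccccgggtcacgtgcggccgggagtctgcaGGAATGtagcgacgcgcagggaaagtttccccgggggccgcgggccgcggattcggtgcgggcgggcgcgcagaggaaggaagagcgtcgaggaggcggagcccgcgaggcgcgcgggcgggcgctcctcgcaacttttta
Wwtr1: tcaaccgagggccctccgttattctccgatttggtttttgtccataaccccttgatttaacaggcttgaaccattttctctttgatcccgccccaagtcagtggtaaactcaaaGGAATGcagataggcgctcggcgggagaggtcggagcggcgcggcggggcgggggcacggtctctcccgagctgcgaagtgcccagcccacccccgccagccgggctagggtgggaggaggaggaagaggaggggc
A match is a run of letters and not a measured binding site, and no binding was assayed in these samples.

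Among the TEAD factors, which bring YAP and TAZ to DNA, 2 were above the limit and 2 below it. Tead1 read 7.88 in each sample, a signal of 236, and was called above 100 with an adjusted p of 1.7e-06 and with an adjusted p of 0.0066 with an assigned spread. The other probeset of Tead1 gave 6.84, 7.11 and 6.84 in replicates 1, 2 and 3 (mean signal 122, adjusted p = 0.135), above 100 in each sample with no call. Tead4 had log2 signals of 7.05, 7.05 and 7.05, which differed by at most 0.003, and a mean signal of 133. It was called above 100 at an adjusted p of 1.5e-05, and of 0.0196 in the fit with assigned spreads. That fit left the values of Tead4 as they were. Each call thus rests in part on values that differed by at most 0.003, and Tead4 was never given an assigned spread. Tead2 read 5.41 (log2) in each sample, a signal of 42.4, and Tead3 read 5.85 in each sample, a signal of 57.7. Tead2 was called below 100 in both fits (adjusted p = 8.1e-10, and 0.000508 with an assigned spread), as was Tead3 (adjusted p = 4.7e-09, and 0.00143 with an assigned spread). No sample of Tead2 or Tead3 reached 100 and no sample of Tead1 or Tead4 was under it. A signal below 100 on an array is a low reading and does not show that a transcript was absent.

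The angiomotin-like genes lay close to the limit. Amotl1 read 6.87 in each sample, a signal of 117, with an adjusted p above 100 of 5.7e-06, and of 0.29 with an assigned spread. Amotl2, which is also known as a target of YAP, read 6.60, 6.60 and 6.42 (log2) in replicates 1, 2 and 3, or signals of 97.2, 97.2 and 85.5. Replicate 3 was the lowest, and all 3 samples were under 100. The mean of 6.54 ± 0.11 (SD, n = 3) was not called (adjusted p below 100 = 0.151), and its 95% interval from 6.32 to 6.76 included the limit. Without replicate 3, the remaining pair of equal values was called below 100 (adjusted p = 1.4e-15) with a mean of -0.04 relative to it on the log2 scale. The third gene of the family, Amot, is among the partners below.

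The CCN targets differed in how far their samples agreed. Ccn1 and Ccn2 encode secreted proteins of the extracellular matrix and are the targets most often used as a readout of YAP and TAZ. Ccn2 read 8.36, 8.36 and 8.43 (log2) in replicates 1, 2 and 3, or 8.39 ± 0.04 (SD, n = 3) and a mean signal of 334. All 3 samples were above 100, replicate 3 was the highest by 0.07, and the adjusted p was 0.00033. Replicates 1 and 2 of Ccn2 held the same value to all 5 decimals, and what step made them equal was not tested. Ccn1 had log2 signals of 6.99, 6.31 and 6.77, or signals of 127, 79.3 and 109. Replicates 1 and 3 were thus above 100 and replicate 2 below it. The mean of 6.69 ± 0.35 (SD, n = 3) was called neither above nor below (adjusted p = 1 above and 0.824 below), and its 95% interval ran from 5.97 to 7.41. Relative to the limit the mean was -0.10 without replicate 1 and 0.24 without replicate 2 on the log2 scale.

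The 3 samples of Ccn1 spanned 0.68 log2 units, a wider range than that of 81.4% of the genes whose mean signal was at least 100. It was the only range of 0.5 or more among the 10 members, beside 26.7% of those genes. Of the same genes, 27.5% held 3 equal values and so had no range. The ranges of the other members with unequal values were 0.26 for Wwtr1, 0.19 for Amotl2, 0.07 for Ccn2 and 0.003 for Tead4. Among 6126 other genes whose mean signal was at least 100, the 3 whose deviations over the 3 samples were nearest to those of Ccn1 were Capg, an actin-capping protein (distance 0.013), Sostdc1, a secreted antagonist of BMP and Wnt (distance 0.017), and Nudc, a protein of nuclear movement and mitosis (distance 0.026). Capg, for example, read 7.34, 6.67 and 7.13 (log2) in replicates 1, 2 and 3. In all, 25 genes lay within a distance of 0.1 of Ccn1, and with 3 samples such a likeness is a description of these arrays.

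The promoter windows of Ccn1 and Amotl2 are shown because these targets hold the TEAD core close to the start. It lay 103 bases before the start of Ccn1 (chr3:145649986-145650235, minus strand) and 65 bases before the start of Amotl2 (chr9:102717554-102717803, plus strand), as CATTCC in both, in capitals below.
Ccn1: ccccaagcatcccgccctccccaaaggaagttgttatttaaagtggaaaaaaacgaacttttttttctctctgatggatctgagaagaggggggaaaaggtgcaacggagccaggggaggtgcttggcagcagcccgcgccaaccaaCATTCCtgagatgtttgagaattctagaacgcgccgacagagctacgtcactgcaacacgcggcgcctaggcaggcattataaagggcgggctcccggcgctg
Amotl2: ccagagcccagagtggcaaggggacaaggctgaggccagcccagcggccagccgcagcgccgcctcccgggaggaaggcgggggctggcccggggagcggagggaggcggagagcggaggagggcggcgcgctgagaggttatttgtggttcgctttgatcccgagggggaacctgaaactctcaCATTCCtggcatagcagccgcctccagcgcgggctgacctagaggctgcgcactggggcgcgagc
Of the other targets listed below, 13 had a promoter in the table, and 4 of these (Ankrd1, Axl, Crim1 and Ptpn14) held the core.

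The sorted cells were checked against markers of their own and of other cell types. By comparison with medullary and glomerular endothelium, the study inferred that its cortical cells held a minor contamination of mainly proximal tubule profile. Of 12 endothelial markers, 12 were above 100, with summed signals of 12325, 13030 and 10595 in replicates 1, 2 and 3. Of markers of other cells, 7 of 8 for proximal tubule, 2 of 4 for thick ascending limb, 2 of 6 for distal tubule and collecting duct and 2 of 8 for smooth muscle and pericyte were above 100, beside 22.9% of all genes. Slc5a2, Kcnj1, Aqp2, Atp6v1g3, Acta2 and Myh11 of these lists were not called, yet each reached 100 in every sample. Of 4 measured podocyte markers 1 (Podxl) was above and 3 (Nphs1, Wt1 and Synpo) below. Of 6 fibroblast markers 1 was above and 5 below. With an assigned spread the calls of Col1a1, the 1 fibroblast marker above, and of Notch3 in the smooth muscle and pericyte list were lost (adjusted p = 0.232 and 0.261), which left no fibroblast marker above, and 3 smooth muscle and pericyte markers were then above. All 5 macrophage, 4 measured lymphocyte and 3 measured erythroid and platelet markers were below 100. In such mixed samples, fewer cells of a type and less RNA per cell cannot be told apart. The arrays correlated across probesets at r = 0.950 (replicates 1 and 2), 0.942 (1 and 3) and 0.941 (2 and 3), with median log2 signals of 5.70, 5.70 and 5.66.

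Replicate 2, the sample with the lowest Ccn1, also had the lowest values of 6 of 8 proximal tubule, 3 of 4 thick ascending limb and 5 of 6 distal tubule and collecting duct markers. The median deviations of these lists from each gene's own mean were 0.13, -0.20 and 0.06 in replicates 1, 2 and 3 for proximal tubule, 0.37, -0.44 and 0.15 for thick ascending limb, and 0.06, -0.29 and 0.15 for distal tubule and collecting duct, beside 0.30, -0.38 and 0.08 for Ccn1. Their summed signals were 14748, 12181 and 12667 for proximal tubule, 3209, 1797 and 2978 for thick ascending limb, and 1609, 1145 and 2574 for distal tubule and collecting duct. Of 1635 genes whose mean signal was at least 100 and whose range was 0.5 or more, 18.3% had their lowest value in replicate 1 alone, 30.8% in replicate 2 alone and 43.2% in replicate 3 alone. At any range, of 6127 genes with such a mean, these shares were 12.6%, 19.1% and 24.9%. The markers were counted at any range and level. Replicate 3 was the highest sample for Wwtr1 and Ccn2 and the lowest for Amotl2. It had the highest value of 7 of 8 smooth muscle and pericyte markers (summed signals 1736, 1743 and 3611). The share of all genes with their highest value in replicate 3 was not counted. Of 12 endothelial markers, 6 had their lowest value in replicate 3 and 1 (Tie1) its highest. Among these 6, Kdr (9.72, 9.70 and 8.79) and Emcn (11.56, 11.96 and 11.17) had the widest ranges and Pecam1 (10.09, 10.09 and 10.05) the narrowest. The median deviation of the endothelial list in replicate 3 was -0.01. The part of tubular, smooth muscle and pericyte cells in the levels of Ccn1, Wwtr1, Ccn2 and Amotl2 was not tested.

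**Figure D2:**
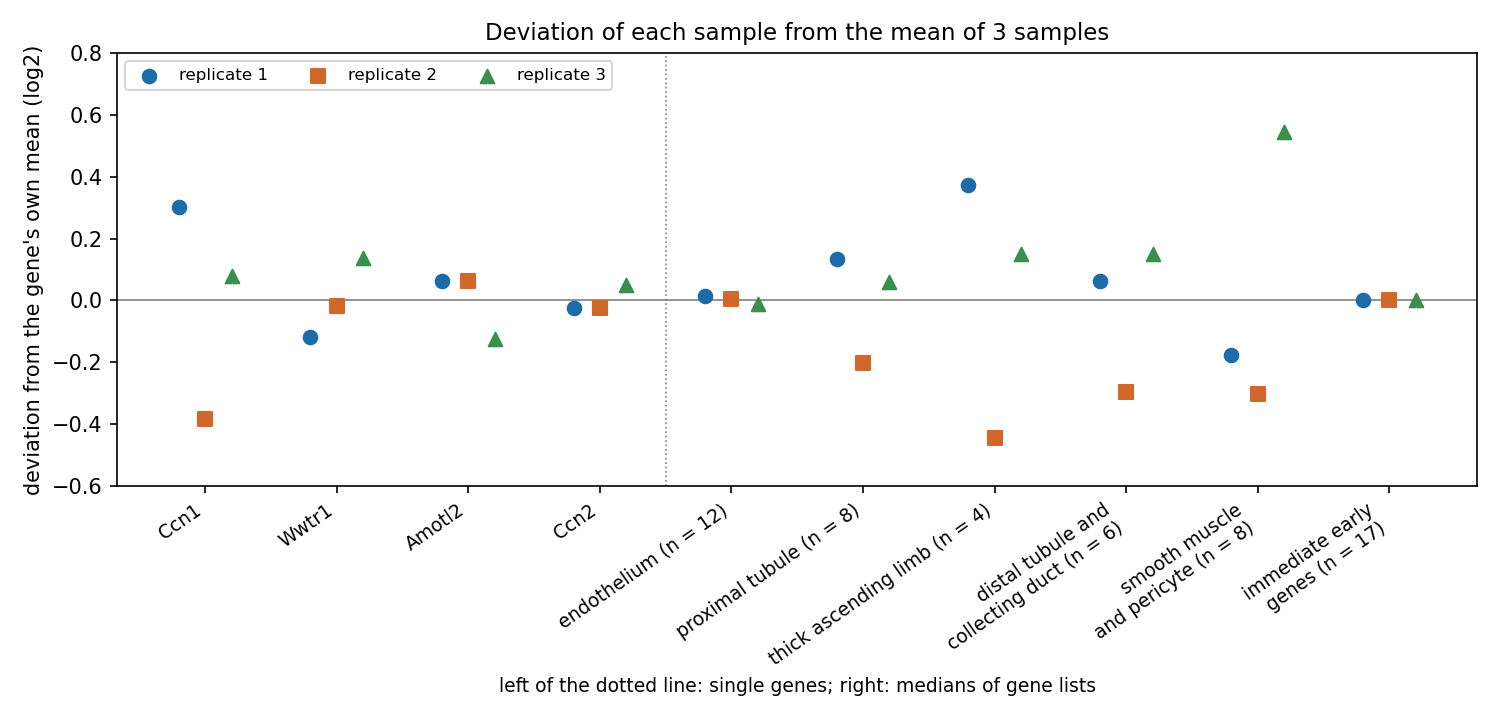
Deviation of each sample from the mean of 3 samples, in log2 units (y axis), for the 4 members whose values differed by 0.07 or more, left of the dotted line, and as the median over gene lists, right of it. Points are the replicates. Ccn1 and the 3 tubular lists are lowest in replicate 2, the smooth muscle and pericyte list is highest in replicate 3, and the median of the endothelial list stays within 0.02 of 0, although 6 of its 12 markers are lowest in replicate 3.

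Genes that respond within minutes to tissue dissociation, and the SRF pathway that shares targets with YAP, were also examined, since Ccn1 is itself an immediate early gene. Of 17 immediate early genes, 6 were above 100 (Jun, Dusp1, Zfp36, Klf2, Klf4 and Klf6), 9 below and 2 neither, and the above call of Zfp36 was lost with an assigned spread (adjusted p = 0.959). That fit called Btg2 above (adjusted p = 0.0229) and Myc below (adjusted p = 0.0369), which made 6 above and 10 below. Fos read 5.89 in each sample, Egr1 averaged 6.13 ± 0.03 and Fosb had 5.96 in each sample, all below 100, whereas Jun averaged 8.67 ± 0.01 (SD, n = 3) and Dusp1 had 9.01, 8.61 and 8.32 in replicates 1, 2 and 3. Of the 17 genes, 2 (Junb and Ier2) had their lowest value in replicate 2 alone, where Ccn1 was lowest. For 4, Dusp1 among them, it was in replicate 3 alone, and 7 held 3 equal values. The part of dissociation in the level of Ccn1 was not tested. Of 8 measured genes of the SRF group, 5 were above 100 (Mrtfb, Vcl, Actb, Tpm1 and Flna) and 3 below, and 3 were above without replicate 1 or 2. Srf, the transcription factor itself, averaged 6.18 ± 0.004 and was below, its cofactor Mrtfa was below with equal values, and the cofactor Mrtfb averaged 8.28 ± 0.19 (SD, n = 3) and was above.

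The Hippo kinase core was read out above the limit for 4 of 7 measured genes, below it for none of the 7 at an adjusted p under 0.05 or at an unadjusted p under 0.05, and as neither for 3. Sav1, the scaffold of MST1 and MST2, read 8.64, 8.64 and 8.51 (log2) in replicates 1, 2 and 3 (adjusted p = 0.00081). Lats1 had 8.39 in each sample (adjusted p = 1.7e-06, and 0.0027 with an assigned spread), and Mob1a, a coactivator of the LATS kinases, had 7.99 in each sample. Lats2, a kinase and also a YAP target, had 7.54, 7.57 and 7.17, lowest in replicate 3, with an adjusted p of 0.04, which became 0.253 without replicate 1 and 0.239 without replicate 2. Not called were Stk4, which encodes MST1 (7.60, 6.95 and 6.95), Mob1b (7.85, 7.51 and 6.91) and Nf2, an upstream activator (6.59, 6.80 and 6.96). Stk4 and Mob1b reached 100 in every sample and missed the call with adjusted p values of 0.224 and 0.165, and Stk4 was called above 100 without replicate 1, which left a pair of equal values. Stk3, which encodes MST2, had no probeset of its own.

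Of 9 upstream regulators, 4 were above 100 (Fat4, Taok1, Taok2 and Map4k4), 3 below (Wwc1, Dchs1 and Taok3) and 2 neither (Wwc2 and Frmd6). The kinases Taok1 and Map4k4, which feed into LATS, had log2 signals of 8.86, 8.92 and 8.62 and of 8.50 in each sample. Taok2 had 7.24, 7.20 and 7.20. Calls were lost for Taok1 without replicate 1 or 2 (adjusted p = 0.0655 and 0.0524) and for Taok2 without replicate 3 (adjusted p = 0.0557). Fat4, an atypical cadherin, had 6.75 in each sample and lost its call with an assigned spread (adjusted p = 0.784) and after quantile normalization (adjusted p = 0.0677). Taok3 had 6.52 in each sample and lost its call with an assigned spread (adjusted p = 0.239). Dchs1, which binds FAT4, had 5.29 in each sample, and Wwc1 (KIBRA) had 5.82 in each sample, both below 100 in both fits. Wwc2 averaged 6.78 ± 0.08 and Frmd6 averaged 6.60 ± 0.41 (SD, n = 3), with no call, and a call of Wwc2 above 100 without replicate 3 rested on a remaining pair of equal values with a spread of 0.

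Among other partners of YAP, TAZ or TEAD, 6 of 13 measured genes were above 100 and 7 below, and each call held with an assigned spread. Vgll4, which competes with YAP for TEAD, read 8.45 in each sample, whereas its relatives Vgll1, Vgll2 and Vgll3 averaged 5.73 ± 0.28, 5.57 and 5.52 ± 0.15 (SD, n = 3) and were below. Amot, the founder of the angiomotin family, had 5.13 in each sample and was below. Ptpn14, a phosphatase that binds YAP, had 7.89 in each sample. Of the junction proteins, Tjp1 (ZO-1) had 10.16 in each sample and Ctnna1 (α-catenin) had 9.18, 8.95 and 8.98 in replicates 1, 2 and 3. Of the LIM proteins that restrain LATS kinases, Wtip was above with 7.85, 7.54 and 7.58, and Ajuba (5.61 ± 0.19) and Limd1 (5.97 ± 0.06) were below. Yes1, the kinase after which YAP was named, had 7.83 in each sample and was above, whereas its relative Src had 6.15 in each sample and was below. Leaving out a replicate ended 4 of the 13 calls, those of Vgll1 (adjusted p = 0.0966 without replicate 1 or 2), Ajuba (0.0516 and 0.0517 without replicates 1 and 2), Wtip (0.119 and 0.198 without replicates 2 and 3) and Ctnna1 (0.0786 without replicate 3).

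The other target genes were divided. Of 19 genes, 7 were above 100 (Crim1, Lats2, Igfbp3, Tgfb2, Ptpn14, Asap1 and Gadd45a), 8 below and 4 neither. Igfbp3, a secreted binding protein for insulin-like growth factors, read 10.59, 10.70 and 10.70 (log2) in replicates 1, 2 and 3. Crim1, a membrane protein that binds BMPs, had 8.03 in each sample, the ligand Tgfb2 had 8.37 in each sample, and Asap1 had 7.71, 8.04 and 8.04, lowest in replicate 1. Gadd45a, a stress response gene, was the most variable of those called above, with 7.94, 7.47 and 8.24, an adjusted p of 0.047 and its lowest value in replicate 2. It was not called when any 1 replicate was left out (adjusted p from 0.0933 to 0.292), and Asap1 was not called without replicate 2 or 3 (adjusted p = 0.121 and 0.178).

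Ankrd1, a cardiac and muscle ankyrin repeat protein widely used as a YAP target, read 5.30 in each sample and was below 100 (adjusted p = 6.1e-10, and 0.000401 with an assigned spread). F3 (tissue factor) had 5.26, 5.12 and 5.51, all below. The 6 other targets called below, Myof, Nuak2, Dock5, Arhgef17, Fjx1 and Foxf2, averaged between 4.67 and 6.21, and of these Myof and Arhgef17 lost their calls without replicate 1 or 2 (adjusted p = 0.118 and 0.14). Not called were Axl, a receptor tyrosine kinase, with 5.88, 5.90 and 6.47, Nt5e (CD73) with 6.67, 6.67 and 5.79, Rbms3 with 6.84, 6.56 and 6.84, and Ccdc80 with 5.85, 5.85 and 6.56. In Axl and Ccdc80 the highest value was that of replicate 3, and both were called below 100 with an assigned spread given to the equal probesets (adjusted p = 0.0253 and 0.0417). In Nt5e replicate 3 was the lowest. Axl was also called below without replicate 3 (adjusted p = 0.00727). Calls of Ccdc80 and Nt5e without replicate 3 and of Rbms3 without replicate 2 rested on a remaining pair of equal values with a spread of 0.

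**Figure D3:**
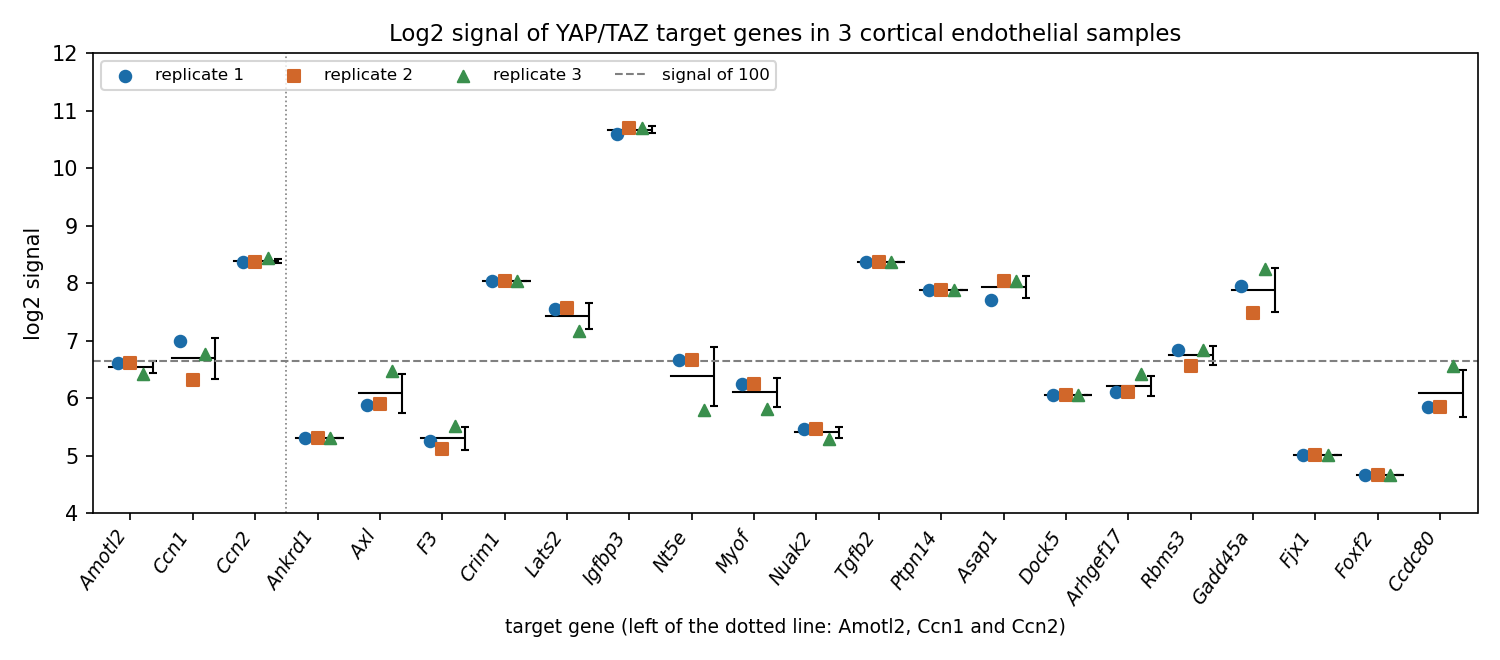
Log2 signal (y axis) of target genes (x axis) in the 3 samples, with Amotl2, Ccn1 and Ccn2 left of the dotted line and the 19 other targets right of it. Points are the replicates, horizontal bars the means and error bars the SD (n = 3), and the dashed line is a signal of 100. Igfbp3, Ccn2, Tgfb2 and Crim1 stand above the line in every sample and Ankrd1, F3, Fjx1 and Foxf2 below it in every sample.

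Of the 4 other CCN genes, none was called above 100 by limma at an adjusted p under 0.05, or at an unadjusted p under 0.05. Ccn4 averaged 5.03 ± 0.08 and Ccn6 had 5.26 in each sample, both below. Ccn5 read 6.44 in each sample and lost its call below 100 with an assigned spread (adjusted p = 0.118). Ccn3 (Nov) had 6.68, 6.91 and 6.36 in replicates 1, 2 and 3, with the highest value in replicate 2, where Ccn1 was lowest, and it was not called.

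Over these 5 lists, which hold 50 measured genes beside the 10 members, 19 genes were above 100, 21 below and 10 neither. With an assigned spread 18 were above and 21 below. Over all genes the shares were 22.9% above and 65.0% below, and 20.7% and 62.3% with an assigned spread. The same shares are the background for the count of each list given above. The median of the mean log2 signals was 6.82 over the 10 members, 6.62 over these 50 genes and 5.88 over all genes. These medians pool probesets of unequal binding and describe each set against the limit of 6.64. Lats2 and Ptpn14 stand in 2 of the lists and are counted once in these totals.

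**Figure D4:**
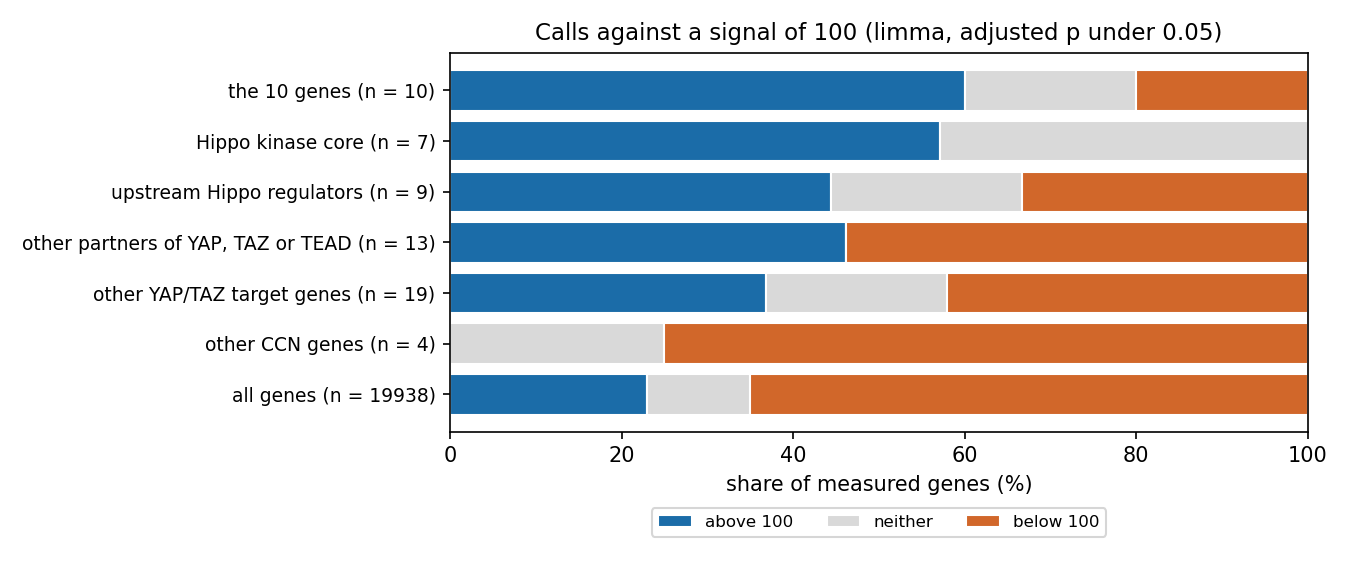
Share of measured genes, in percent (x axis), called above 100, neither or below 100 by limma at an adjusted p under 0.05, for the 10 members, the 5 lists and all 19938 genes. The number of genes is given beside each bar, and 6 of the 10 members against 22.9% of all genes were above.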

How the data were processed

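Sorted cortical endothelial cells of 3 Tie2-GFP kidneys were hybridized to Affymetrix Mouse Gene 1.0 ST arrays. The authors deposited log2 signals, summarised per probeset and normalized between arrays. The study names GeneSpring GX with RMA normalization, and the submitters' processing notes name Affymetrix Expression Console. The version of Expression Console, and which arrays were normalized jointly, stand in none of the sources used here. Samples of other compartments and stages were not used. The values were used as deposited. Arrays give no read depth, so their number, 3, limits the precision.

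Of 35557 probesets, 21789 were assigned to 1 gene, 1621 to several and 12147 to none, and 21766 of the assigned symbols matched the reference gene table. An intercept-only model of the log2 signal minus the log2 of 100 was fitted to all probesets with limma 3.58.1 in R 4.3.3 (eBayes with trend, residual degrees of freedom 2, prior degrees of freedom 0.297), one-sided in each direction, with Benjamini-Hochberg adjustment and a threshold of 0.05. Counts and figures were made with pandas 2.3.3 and matplotlib 3.10.9 in Python 3.11.15. The fit was also tried on simulated data in which no probeset held equal values, so that trial did not cover such probesets. The samples form 1 group by their labels and are independent biological samples by the study's account.

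The named genes are all members and, of each of 7 lists, up to 4 genes in the order written, every gene of a count of 5 or fewer, genes whose call rests on equal values, and the 3 genes nearest to a member with a range of 0.5 or more. Further genes of the lists were named after their values were seen. The members and lists were chosen with earlier results of these data known. The alternatives were limits of 50 and 200, quantile normalization, columns shifted to 1 median, a limit reached in each sample with no test, no variance trend, an assigned spread for equal values (from 20 bins of mean), probesets under a signal of 32 left out, the probeset with the lowest mean, and each replicate left out.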

Additional observations from a re-analysis of the deposited data

How the results depend on the processing

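The limit mattered most. With a limit of 200, 2 members were above and 7 below, beside 9.37% and 80.6% of all genes, and with a limit of 50, 9 were above and 1 below, beside 51.3% and 40.5%. Of the 50 other pathway genes, 33 were above 50 and 9 below it, beside the same 51.3% and 40.5% of all genes. Relative to 200, the means of Yap1, Tead4, Amotl1 and Ccn1 lay at -0.87, -0.59, -0.77 and -0.95 on the log2 scale, and relative to 50 those of Tead3 and Amotl2 lay at 0.21 and 0.90, opposite in sign to their values against 100. Under the other alternatives the members above 100 numbered 4 to 6 and those below 2 or 3, and the pathway genes 15 to 22 above and 17 to 23 below. Leaving out any 1 replicate left residual degrees of freedom of 1 and gave 5 members above, without Wwtr1 each time. These fits assigned no spread, so Yap1 and Amotl1 kept calls that rest on equal values. The mean of Wwtr1 stayed 0.96 to 1.09 log2 units above the limit in them. With 1 replicate left out, means changed sign relative to 100 for 4 genes: that of Ccn1 ranged from -0.10 (without replicate 1) to 0.24 (without replicate 2), Ccn3 from -0.12 (without replicate 2; -0.01 without replicate 1) to 0.15 (without replicate 3), Frmd6 from -0.18 (without replicate 1) to 0.19 (without replicate 3), and Nt5e from -0.41 (without replicate 1) to 0.028 (without replicate 3). Of the other members' calls, those of Yap1 and Amotl1 were lost with an assigned spread, that of Tead1 at its other probeset (adjusted p = 0.135), and Amotl2 was called below without replicate 3, on a pair of equal values. Gadd45a was not called without any 1 of the replicates. Members with 3 equal values had ranges of 0.04 after columns were shifted to 1 median and of 0.04 to 0.06 after quantile normalization, and Ccn2 then had a range of 0.16. The cause of these changes was not tested beyond what each alternative alters. No paired analysis was possible because the 3 samples form 1 group.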
